A study of Mus musculus with 7 samples.

Results

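Water leaves the renal tubule through aquaporins, a family of membrane channels, and in the collecting duct vasopressin sets how much. The genes described here are 9 aquaporin genes (Aqp1, Aqp2, Aqp3, Aqp4, Aqp5, Aqp6, Aqp7, Aqp8 and Aqp11) and Avpr2, which encodes the vasopressin V2 receptor. These 10 members, of 45706 genes in the deposited tables, were chosen by symbol as a gene family, with the differences between treated and untreated kidneys in these same libraries already known. Because of that, the members' own differences are given as a description, with no test; no threshold on a measured value was applied. Of the 10, 9 passed the filter on low counts and entered the fit over 15399 genes; Aqp5 did not.

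Kidney RNA was sequenced from 7 male Slc7a9-/- mice aged 6 months, 3 untreated and 4 given L-ergothioneine, a sulfur-containing dietary antioxidant, at 16 mg/kg/day in the drinking water. All 7 mice lack Slc7a9, the light chain of the cystine transporter of the proximal tubule, and are a model of cystinuria, so no value compares with a wild-type kidney. The labels give neither the time of collection, nor water intake, nor urine concentration, nor how long treatment lasted, and they do not say how the Slc7a9 allele was made. The samples are numbered as separate males of each group, and the spread between them is the spread between kidneys.

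Vasopressin binds the V2 receptor on the basolateral side of collecting duct principal cells, a stimulatory G protein raises cyclic AMP, and protein kinase A then moves vesicles carrying aquaporin-2 to the apical membrane. Water that enters through aquaporin-2 leaves the cell through aquaporin-3 and aquaporin-4 on the basolateral side. Aquaporin-1 is the constitutive channel of the proximal tubule, the thin descending limb and the descending vasa recta, and does not depend on vasopressin. Aquaporin-7 passes glycerol as well as water and is known from the straight proximal tubule and from adipocytes, while aquaporin-6, aquaporin-8 and aquaporin-11 are known mainly from intracellular membranes.

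Libraries held 14843899 to 19791575 expected counts. Of the deposited TPM, short non-coding RNA took 12.2% in untreated library 1, 16.2% in untreated library 2 and between 37.5% and 48.7% elsewhere, which lowers the TPM of every other gene in the remaining 5 libraries. Differences below are therefore taken from the counts, scaled to CPM, the counts relative to library size, with library sizes scaled by edgeR's TMM, and a log2 fold change is always treated minus untreated, from edgeR, with its standard error (SE). In that fit 7.16% of the genes tested differed at an adjusted p under 0.05: 3.58% of the genes tested were higher and 3.57% lower in treated kidneys. Markers of renal cell types were detected in every library: principal cell genes summed to 568 to 711 CPM, intercalated cell genes to 283 to 372 CPM and proximal tubule S1 and S2 genes to 16616 to 20054 CPM.

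Of the 9 members tested, 2 were among the genes called higher in treated kidneys (Aqp8 and Aqp7) and 0 among those called lower, beside the 3.58% and 3.57% over all genes. In the same 2 members every treated kidney lay above every untreated one, beside 9.46% of all genes tested (and 9.11% with every treated kidney below, 18.6% in either direction). The other 7 members, which include Avpr2 and every aquaporin of the principal cell, had overlapping groups. The median log2 fold change of the 9 was 0.06, beside -0.003 over all genes tested.

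**Figure D1:**
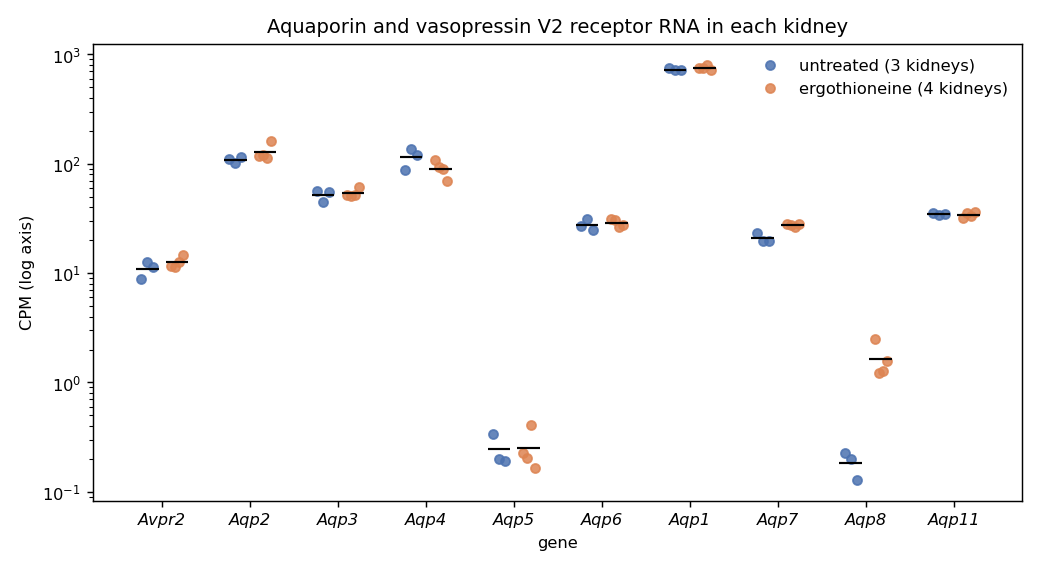
CPM on a log axis for each of the 10 genes, with a point per kidney (blue untreated, n = 3; orange ergothioneine, n = 4) and a black bar at each group mean. Aqp8 separates from 0.185 to 1.64 CPM between the means and Aqp7 from 20.9 to 27.8, while the other genes overlap.

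The sequence just upstream of the start is shown for the members that the differences turn on, Aqp8 and Aqp7, and for Aqp2, the channel regulated by vasopressin. Sequences are from RefSeq on GRCm38.p6, where 9 of the 10 members had a promoter entry. Each is the 250 bases before the annotated start, read 5′ to 3′ on the gene's strand, with capitals for any match, on either strand, to CACGTG (the E-box read by the clock activators BMAL1 and NPAS2), TGACG (the core of the cAMP response element), AGGTCA (a nuclear receptor site), AGATAA (known for factors such as Gata2 and Gata3) or TATAAA. No 2 matches overlap in these sequences. The windows are chr7:123462044-123462293 (plus strand) for Aqp8, chr15:99578806-99579055 (plus strand) for Aqp2 and chr4:41048137-41048386 (minus strand) for the upstream of the annotated starts of Aqp7.
Aqp8: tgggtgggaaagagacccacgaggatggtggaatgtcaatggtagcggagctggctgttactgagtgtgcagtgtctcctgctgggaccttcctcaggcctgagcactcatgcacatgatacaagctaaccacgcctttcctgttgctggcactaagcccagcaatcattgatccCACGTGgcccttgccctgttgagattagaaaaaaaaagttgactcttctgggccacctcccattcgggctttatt
Aqp2: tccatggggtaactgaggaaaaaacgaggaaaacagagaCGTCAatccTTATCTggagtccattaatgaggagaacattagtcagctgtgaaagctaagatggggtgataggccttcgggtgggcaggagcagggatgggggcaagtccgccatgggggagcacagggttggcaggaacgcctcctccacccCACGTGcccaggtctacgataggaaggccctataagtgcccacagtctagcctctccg
Aqp7: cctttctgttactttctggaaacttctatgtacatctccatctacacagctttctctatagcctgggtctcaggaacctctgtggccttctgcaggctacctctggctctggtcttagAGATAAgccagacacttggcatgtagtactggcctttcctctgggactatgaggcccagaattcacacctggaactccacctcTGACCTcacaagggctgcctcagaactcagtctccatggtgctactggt

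CACGTG was present in the windows of 4 of the 9 members, Aqp8, Aqp2, Aqp5 and Aqp6, and in 7.15% of 32851 windows of all genes; these windows ran from 250 bases before to 50 after the start. Its first base lay at -75 in Aqp8, -58 in Aqp2, -87 in Aqp5 and -29 in Aqp6, counted from the RefSeq start at +1. RefSeq starts differ from the gene spans given below, among these genes most for Aqp5 and Aqp6. For Aqp5 the match lies inside the span of 99590782 to 99594829. The 30 bases around it are shown for the 2 members whose longer window is not printed, chr15:99590929-99590958 for Aqp5 and chr15:99601159-99601188 for Aqp6, both on the plus strand.
Aqp5: tgccgcgtgggtCACGTGgcccgggcgggt
Aqp6: agctggaacagaCACGTGagcactctgaac
Of these 4 genes Aqp8 was called between the groups, Aqp2 and Aqp6 had overlapping groups and Aqp5 was too low to be tested. TGACG was found in Aqp2, at -211, and in none of the other 8 members' windows, beside 20.8% of all windows, and the full element TGACGTCA was in none of the 9, beside 1.79%. AGGTCA was found in Aqp7 and Aqp11, beside 16.3% of all windows. AGATAA was found in Aqp2 and Aqp7 (11.2% of all windows) and TATAAA in Aqp3 and Avpr2 (13.6%). A match is a run of letters and says nothing of binding in these kidneys.

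Avpr2 (ENSMUSG00000031390, chromosome X, 73892102 to 73895502, GRCm38) had 8.78, 12.6 and 11.3 CPM in the 3 untreated kidneys and 11.5, 11.3, 12.7 and 14.6 CPM in the 4 treated ones. The highest value was in treated library 4 and the lowest in untreated library 1, and the groups overlapped. The group means were 10.9 ± 1.94 CPM (SD, n = 3) and 12.5 ± 1.48 CPM (SD, n = 4), a log2 fold change of 0.21 ± 0.13. That value was 0.07 without untreated library 1, 0.13 without treated library 4 and 0.32 without untreated library 2. Avpr2 lies inside the span of L1cam and overlaps Arhgap4, both on the opposite strand. The library kit keeps strand, but the strand setting of the authors' counting is not given in the sources used here, and without it reads of the 3 genes could not be told apart; L1cam and Arhgap4 had log2 fold changes of 0.03 and -0.004.

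Aqp2 (ENSMUSG00000023013, chromosome 15, 99579055 to 99584547) had 109, 102 and 116 CPM in untreated kidneys and 117, 121, 113 and 162 CPM in treated ones. Of the treated kidneys 3 lay within or just above the untreated range, and treated library 4 stood apart from all others. Means were 109 ± 6.83 and 128 ± 22.5 CPM (SD, n = 3 and 4), with a log2 fold change of 0.23 ± 0.13. Without treated library 4 the log2 fold change was 0.10.

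Aqp3 (ENSMUSG00000028435, chromosome 4, 41092722 to 41098183), the basolateral exit channel that also passes glycerol, had 56.4, 44.4 and 55.5 CPM untreated and 51.7, 51.1, 51.9 and 61.0 CPM treated. Treated library 4 was again the highest and the untreated range held the other 3 treated kidneys. The means of 52.1 ± 6.73 and 53.9 ± 4.72 CPM (SD, n = 3 and 4) differed by a log2 fold change of 0.05 ± 0.09, which was -0.02 without treated library 4 and -0.06 without untreated library 2. Aqp4 (ENSMUSG00000024411, chromosome 18, 15389496 to 15410982), the second basolateral channel, ran the other way in library 4. Its values were 88.5, 136 and 121 CPM untreated and 108, 92.5, 90.1 and 70.3 CPM treated, with treated library 4 the lowest of all 7. The groups overlapped through untreated library 1, and means of 115 ± 24.3 and 90.2 ± 15.5 CPM (SD, n = 3 and 4) gave a log2 fold change of -0.35 ± 0.20, which was -0.51 without untreated library 1, -0.21 without untreated library 2 and -0.25 without treated library 4. Skeletal muscle, which also expresses Aqp4, left at most 0.567 CPM over its 5 markers.

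Thus treated library 4 held the highest Avpr2, Aqp2, Aqp3 and Aqp11 and the lowest Aqp4, Aqp1 and Aqp5 of the 7 kidneys. Its summed principal cell markers, 697 CPM, lay within the 675 to 711 CPM of the treated group, and its summed osmolyte genes of the medulla (Akr1b3, Slc5a3, Slc6a12, Slc6a6, Nfat5 and Slc14a2), 1764 CPM, were the lowest of all libraries. The part of either in the values of that kidney was not tested. Some of its ranks were near ties. Aqp11 stood at 36.0 CPM beside 35.7 in treated library 2, and Aqp1 at 713 CPM beside 715 in untreated library 2. Aqp5 had 3 counts there, as in untreated libraries 2 and 3.

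The principal cell markers as a list stood at 568 to 615 CPM in untreated and 675 to 711 CPM in treated kidneys, without overlap. Of its 9 genes 1 rose and 0 fell: Npnt, which encodes the matrix protein nephronectin, at a log2 fold change of 0.59 ± 0.06 (edgeR adjusted p = 1.52e-05). The list's median was 0.15, and the count was 2 without untreated library 2. Taken singly, 2 of the 9 genes had groups that did not overlap, beside 18.6% of all genes tested. Kcnj1 alone had means of 240 CPM untreated and 271 CPM treated, so the sum leans on abundant genes. Fewer cells of a type and less RNA per cell cannot be told apart in these bulk samples, here or for any list below.

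The intercalated cell aquaporin Aqp6 (ENSMUSG00000043144, chromosome 15, 99601400 to 99605477), an anion-permeable channel of acid-secreting cells, had 27.3, 31.2 and 25.0 CPM untreated and 31.6, 30.6, 26.3 and 27.6 CPM treated. These ranges overlapped almost wholly, at means of 27.8 ± 3.11 and 29.0 ± 2.47 CPM (SD, n = 3 and 4) and a log2 fold change of 0.06 ± 0.09. Of 9 other intercalated cell genes 4 rose and 0 fell: Atp6v1g3 (0.63), Slc4a1 (0.59), Atp6v0d2 and Slc26a4 (both 0.38), with adjusted p from 0.00154 to 0.0189 by edgeR. The list's sum ran from 283 to 296 CPM untreated and 329 to 372 CPM treated. The 4 became 3 without untreated library 1, 2 without untreated library 3 or treated library 1, and 1 against untreated library 3 alone. Aqp5 (ENSMUSG00000044217, chromosome 15, 99590782 to 99594829), a secretory gland channel reported in some intercalated cells, had 3 to 7 counts in a library (0.164 to 0.409 CPM), too few to be tested. Salivary gland genes, a source of Aqp5 outside the kidney, summed to 11.4 to 12.9 CPM untreated and 5.62 to 8.71 CPM treated, with 2 of the 5 at 0 in all libraries.

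**Figure D2:**
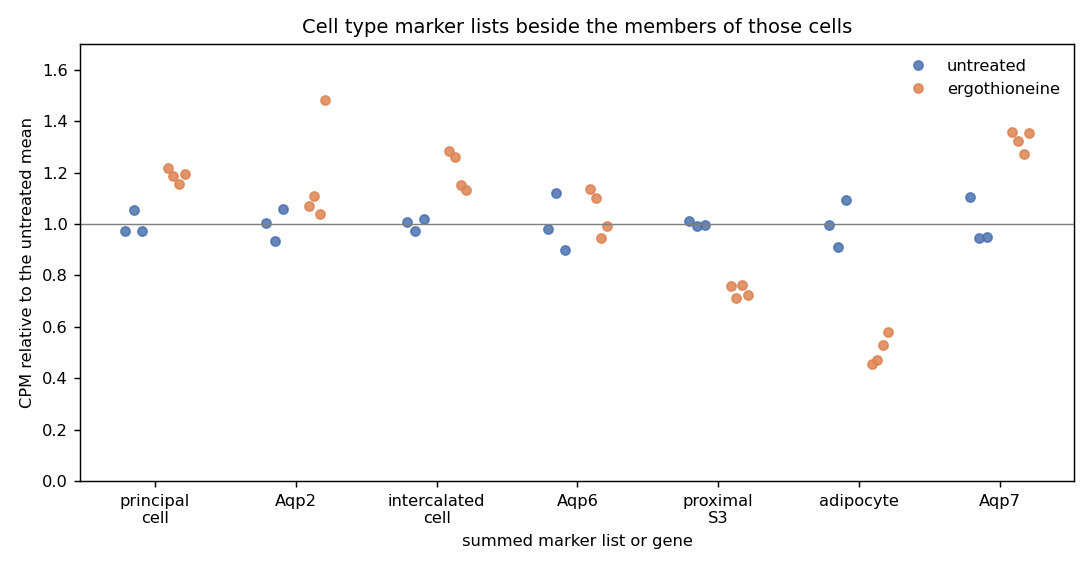
Summed CPM of 4 marker lists and CPM of Aqp2, Aqp6 and Aqp7 in each kidney, divided by the untreated mean (blue untreated, n = 3; orange ergothioneine, n = 4; the grey line is 1). Principal and intercalated cell lists lie above the line in treated kidneys and the proximal S3 and adipocyte lists below it, while Aqp7 lies above.

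Aqp1 (ENSMUSG00000004655, chromosome 6, 55336432 to 55348555) was the most abundant member. Its values were 754, 715 and 716 CPM untreated and 753, 755, 805 and 713 CPM treated, and both the highest and the lowest value were in treated kidneys. The means of 728 ± 22.4 and 757 ± 37.6 CPM (SD, n = 3 and 4) gave a log2 fold change of 0.05 ± 0.06, which was 0.02 without treated library 3 and 0.08 without untreated library 1. Thin limb genes other than Aqp1 were higher in treated kidneys, where 3 of 6 rose and 0 fell: Fst (1.38), Cldn1 (0.76) and Slc14a2 (0.47). The count was 1 without untreated library 3, and Fst was also lost without untreated library 2 (edgeR adjusted p up to 0.0728). Endothelial genes, another source of Aqp1, showed 0 calls of 7 by edgeR, 0 at an unadjusted p under 0.05 and 0 by DESeq2 or limma, at sums of 369 to 403 and 380 to 405 CPM. Red cell genes, where Aqp1 is also abundant, summed to 7.89 to 17.5 CPM untreated and 9.94 to 14.8 CPM treated.

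Aqp7 (ENSMUSG00000028427, chromosome 4, 41033074 to 41048139) had 23.2, 19.8 and 19.9 CPM untreated and 28.4, 27.7, 26.6 and 28.4 CPM treated. Every treated kidney exceeded every untreated one, the treated values lying close together. Means were 20.9 ± 1.94 and 27.8 ± 0.831 CPM (SD, n = 3 and 4), 1.33-fold higher, at a log2 fold change of 0.41 ± 0.08 that lay between 0.37 and 0.49 when any 1 library was left out. On the deposited TPM the groups overlapped, at 16.4, 12.8 and 9.11 TPM untreated and 17.2, 14.1, 12.4 and 12.4 TPM treated. After TPM was rescaled without short non-coding genes the groups separated again, at 17.2 ± 1.79 and 25.1 ± 2.58 TPM (SD, n = 3 and 4).

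Summed markers of both cell types known for Aqp7 stood lower in the same kidneys. Of 6 genes of the proximal tubule S3 segment 3 fell and 0 rose: Slc22a30 (log2 fold change -0.61 ± 0.07), Slc7a13 (-0.56 ± 0.09) and Atp11a (-0.42 ± 0.07), with edgeR adjusted p up to 0.00143 and list sums of 3850 to 3931 CPM untreated and 2766 to 2956 CPM treated. The S3 list's median was -0.42, and -0.08 against untreated library 3 alone. Without untreated library 1 it was -0.19, and 1 of the 6 S3 genes rose while 3 fell. Of 10 adipocyte genes, 8 were tested, 7 fell and 0 rose, and the sums were at least 79.9 CPM untreated and at most 51.0 CPM treated. The count that fell was 6 or 7 with any 1 library left out. Cfd missed the threshold in 5 of those 7 fits (edgeR adjusted p up to 0.149). All 10 adipocyte genes had counts in at least 1 library. The part of either cell type in the level of Aqp7 was not tested. Glycerol that enters through aquaporin-7 is phosphorylated by glycerol kinase. In that list of 6 genes 2 fell and 0 rose: Gk, the kinase itself, from 1058 ± 36.3 to 868 ± 28.5 CPM (SD, n = 3 and 4; edgeR log2 fold change -0.28 ± 0.06, adjusted p = 0.00907), and Gpd1, the next enzyme (-0.26 ± 0.06, adjusted p = 0.0189). Gpd1 missed the threshold when untreated 1 or 3 or treated 1 or 2 was left out (edgeR adjusted p reaching 0.0845).

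Aqp8 (ENSMUSG00000030762, chromosome 7, 123462291 to 123468004) had the largest difference and nearly the lowest level. Untreated kidneys gave 4, 3 and 2 counts, and treated kidneys gave 44, 24, 22 and 29. Every treated kidney lay far above every untreated one, and the lowest treated value was 5.36 times the highest untreated value in CPM. The 119 treated and 9 untreated counts, pooled over the kidneys of each group, gave a ratio of 8.74 after scaling for library size. In CPM the means were 0.185 ± 0.0511 and 1.64 ± 0.591 (SD, n = 3 and 4), and the edgeR log2 fold change was 3.09 ± 0.45. The untreated values of 0.128 to 0.227 CPM are close to the 0.152 to 0.201 CPM that 3 counts would give in these libraries.

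Aqp8 is known from pancreatic acinar cells, liver and the proximal tubule. Of 6 pancreatic acinar genes 5 were at 0 in all 7 libraries, and the list summed to at most 0.164 CPM, in treated library 4. Of 6 hepatocyte genes 0 were called by edgeR, with 2 at an unadjusted p under 0.05, and 0 by DESeq2 or limma. By edgeR 1 rose without untreated library 1 and 2 without treated library 4. The list's median was 0.39, and its sums were 43.8 to 65.9 CPM untreated and 48.1 to 89.8 CPM treated, highest in treated library 3. The part of pancreas or liver in the level of Aqp8 was not tested. Among 14353 named genes whose mean log2 CPM reached 0, those whose profile over the 7 libraries was nearest to Aqp8 were Arntl and Npas2, followed by F2 and Ppard. The measure was the root mean square difference of log2 CPM after each gene was centred on its mean, and it was 0.31 for Arntl, 0.38 for Npas2, 0.50 for F2 and 0.65 for Ppard, against a range of 3.42 for Aqp8 itself. Arntl encodes the clock activator BMAL1 and Npas2 a partner of it, and their log2 fold changes were 2.80 and 2.88; F2 encodes prothrombin and Ppard a nuclear receptor of fatty acids, at 1.88 and 1.33. Genes with as large a difference between the groups are near each other by this measure whatever else they share. Of 15 circadian clock genes 3 rose (Arntl, Npas2 and Clock) and 10 fell, such as Per2 (-2.29) and Ciart (-2.31). The time of day of the collections is not given, and its part in Aqp8 was not tested.

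**Figure D3:**
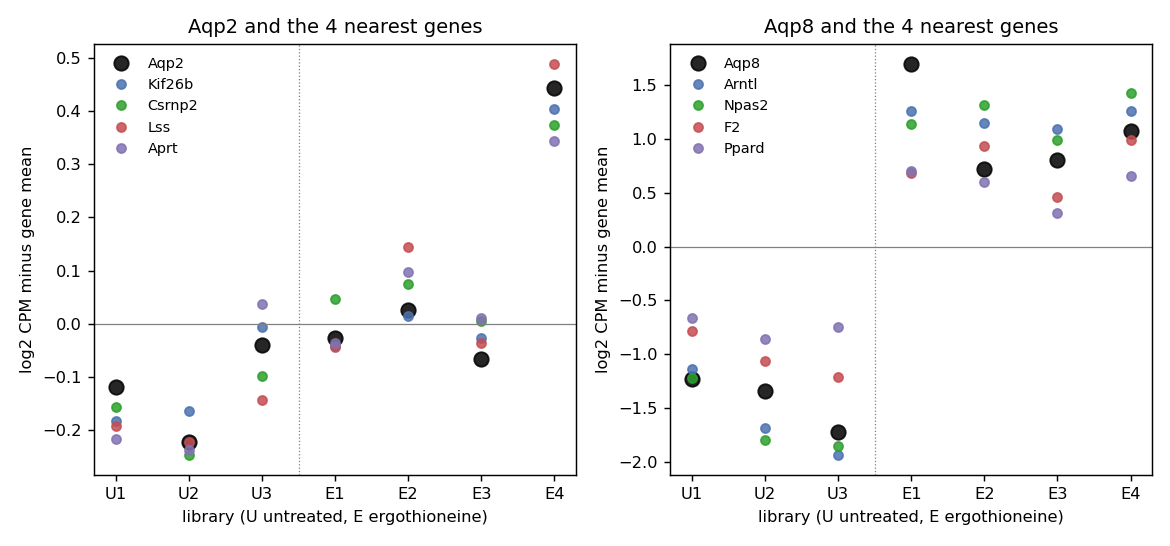
Log2 CPM minus each gene's mean in the 7 libraries (U1 to U3 untreated, E1 to E4 ergothioneine) for Aqp2 (left) and Aqp8 (right) with the 4 genes nearest to each. Aqp2 and its neighbours are raised mainly in treated library 4, whereas Aqp8, Arntl and Npas2 are split by group.

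For Aqp2 the nearest profiles were those of Kif26b (0.04), Csrnp2 (0.06), Lss (0.07) and Aprt (0.07), over a range of 0.66. All 4 were highest in treated library 4, as Aqp2 was, and none was called between the groups (edgeR adjusted p from 0.0993 to 0.342). Lss is an enzyme of cholesterol synthesis and Aprt one of purine salvage. Neither is a known marker of the collecting duct, and with 7 libraries such nearness is a description of these samples.

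Aqp11 (ENSMUSG00000042797, chromosome 7, 97724006 to 97738289), a channel of the endoplasmic reticulum of the proximal tubule, differed little between kidneys. It had 35.5, 34.3 and 34.7 CPM untreated and 32.1, 35.7, 33.6 and 36.0 CPM treated. The untreated values lay inside the treated range, and the log2 fold change was -0.02 ± 0.07. Of the 3 further aquaporins of the mouse looked up, Mip and Aqp12 were at 0 counts in all 7 libraries. The third, Aqp9, had 1 count in 6 libraries and 7 in treated library 3.

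Compared per transcript length (TPM), Aqp1 led at a mean of 313 TPM over the 7 kidneys, followed by Aqp2 at 103 TPM, and these 2 kept that order in 7 of 7 libraries with ranges that did not overlap. Aqp3 (37.0 TPM) and Aqp11 (32.9 TPM) came next and were in this order in 6 of 7 libraries with overlapping ranges. Aqp4 (20.95 TPM), Aqp6 (15.9 TPM) and Aqp7 (13.5 TPM) followed with overlapping ranges, Aqp4 above Aqp6 and Aqp6 above Aqp7 in 6 of 7 libraries each. Avpr2 lay at 7.16 TPM, below Aqp7 in 7 of 7 libraries. Their ranges over the libraries overlapped on the deposited TPM. After TPM was rescaled without short non-coding genes they did not, at 8.67 to 13.8 for Avpr2 and 15.3 to 27.5 for Aqp7. Aqp8 (0.819 TPM) and Aqp5 (0.206 TPM) closed the order, Aqp8 being the higher in 5 of 7 libraries. On rescaled TPM, with the short non-coding genes taken out, the highest kidney exceeded the lowest by 1.19 times for Aqp1, 1.22 for Aqp6 and Aqp11, 1.73 for Aqp2, 1.82 for Aqp4 and 13.8 for Aqp8.

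Several members are neighbours in the genome. Aqp2, Aqp5 and Aqp6 lie in a row on chromosome 15, all on the plus strand, with 6235 bp between Aqp2 and Aqp5 and 6571 bp between Aqp5 and Aqp6. Their mean levels were 103, 0.206 and 15.9 TPM, the middle gene being by far the lowest. Aqp3 and Aqp7 lie 44583 bp apart on chromosome 4, both on the minus strand. Nfx1, 7081 bp from Aqp7 on the side away from Aqp3, had a log2 fold change of -0.11 (edgeR adjusted p = 0.314), beside 0.05 for Aqp3 and 0.41 for Aqp7. Within 100000 bp of Aqp8 the 2 tested protein-coding genes were Lcmt1 (0.22) and Arhgap17 (-0.10), neither called (edgeR adjusted p = 0.184 and 0.516).

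Genes of vasopressin signalling other than Avpr2 mostly did not pass the test. Of 20 listed, 19 were tested, 2 rose and 0 fell, with a list median of -0.06. The count that rose was 1 without untreated library 1 or treated library 1 or 2, and 1 gene fell without untreated library 2. Avpr1a, which encodes the V1a receptor that signals through calcium and in the kidney is known from intercalated cells, vessels and mesangium, had 6.06, 5.83 and 6.35 CPM untreated and 13.6, 14.6, 9.88 and 14.2 CPM treated. All 4 treated kidneys lay above the narrow untreated range. It rose by a log2 fold change of 1.1 ± 0.14 (edgeR adjusted p = 0.000121), which was 1.04 to 1.21 with any 1 library left out. The difference between the receptors' changes was not tested. Arrb1, which encodes the arrestin that quiets activated receptors, rose by 0.27 ± 0.07 (edgeR adjusted p = 0.0355) and missed the threshold when untreated 1 or 2 or treated 1, 2 or 3 was left out (up to 0.131). Gnas, Adcy6 and Creb1, steps after the receptor, did not pass (edgeR adjusted p = 0.521, 0.615 and 0.361). Gnas, the stimulatory G protein, stood at -0.08 ± 0.06 and Adcy6, the main cyclase of the collecting duct, at -0.06 ± 0.06. Creb1, the transcription factor that protein kinase A activates, stood at -0.13 ± 0.08. Groups did not overlap in 6 of the 19, beside 18.6% of all genes tested. Among the 6, Adcy3 was lower (-0.59 ± 0.18) and Ptger3 higher (0.72 ± 0.17) in all treated kidneys. Neither was called (edgeR adjusted p = 0.0637 and 0.0569). Avpr1b was at 0 in all libraries.

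Of 26 genes of aquaporin-2 vesicle traffic and turnover 0 rose and 2 fell. Hspa8, the chaperone that binds aquaporin-2 during endocytosis and serves the whole cell, fell from 2098 ± 157 to 1430 ± 211 CPM (SD, n = 3 and 4; edgeR log2 fold change -0.55 ± 0.10, adjusted p = 0.00327). Nedd4l, a ubiquitin ligase, fell by 0.20 ± 0.06 on the log2 scale (edgeR adjusted p = 0.0488), and missed the threshold in 6 of the 7 fits with 1 kidney left out, all but that lacking untreated 3 (up to 0.158). Against untreated library 3 alone 0 of the 26 were called. Of 15 transcription factors of the collecting duct or of Aqp2, such as Gata2, Gata3, Elf3 and Nfat5, 0 passed by edgeR, 3 had an unadjusted p under 0.05, and 0 passed by limma-voom. In DESeq2 1 was lower, and 1 was lower by edgeR without untreated library 2. The list's median was 0.02. Groups did not overlap in 5 of the 15, beside 18.6% of all genes tested. Treated kidneys lay above in Elf3 (0.25) and below in Nr1h4, Nfatc1, Tfcp2l1 and Nfat5 (-0.49, -0.18, -0.16 and -0.08).

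Among 10 transport genes known to respond to vasopressin 3 rose and 0 fell, with a median of 0.13. They were Slc14a2, the urea transporter of the inner medulla (16.3 ± 3.20 to 22.6 ± 1.54 CPM, log2 fold change 0.47 ± 0.12), Scnn1a, a subunit of the epithelial sodium channel (99.2 ± 4.21 to 128 ± 16.0 CPM, 0.37 ± 0.08), and Slc12a1, the sodium, potassium and chloride cotransporter of the thick ascending limb (1302 ± 90.8 to 1652 ± 140 CPM, 0.34 ± 0.08; SD, n = 3 and 4). Their edgeR adjusted p were 0.0201, 0.0175 and 0.013. All 3 calls were lost without untreated library 3 (0 of 10), and 1 of 10 remained without treated library 1 or treated library 2. By limma on log2(TPM + 1), as deposited or rescaled, 0 of the 10 rose.

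**Figure D4:**
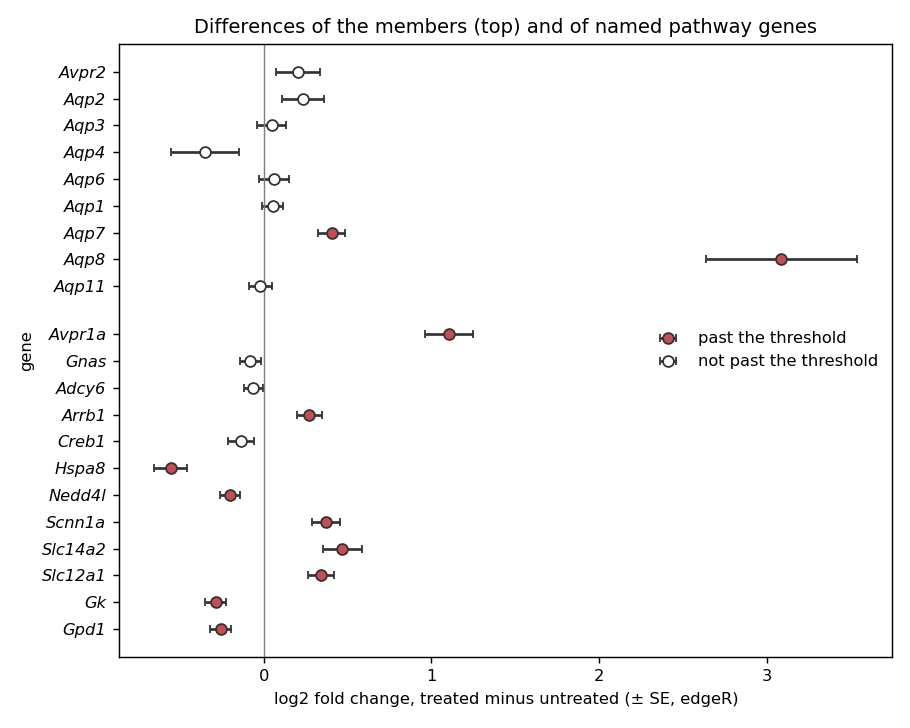
Log2 fold change (treated minus untreated, edgeR, error bars ± SE) of the 9 tested members, above, and of 12 named pathway genes, below, with filled points past an adjusted p of 0.05. Among the members Aqp7 and Aqp8 are filled, which is a description because the members were chosen with these differences known. Among the pathway genes Avpr1a has the largest difference, at 1.1.

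The unit changed the direction of several small differences. On log2(TPM + 1) of the deposited values the median gene was 0.31 lower in treated kidneys, and Aqp1, Aqp2, Aqp3, Aqp6 and Avpr2 were lower too, at -0.31, -0.15, -0.34, -0.29 and -0.20, where the counts gave small positive values. Aqp4 was called lower on that scale, at -0.68 ± 0.20, and Aqp7 lost its call at 0.15 ± 0.20. Aqp8 stayed higher at 0.85 ± 0.14, a scale on which the pseudocount of 1 compresses low genes. With those short genes taken out of TPM the median gene was at 0.00 and the members returned to the direction of the counts, with Aqp4 at -0.32 and Aqp7 at 0.52.

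**Figure D5:**
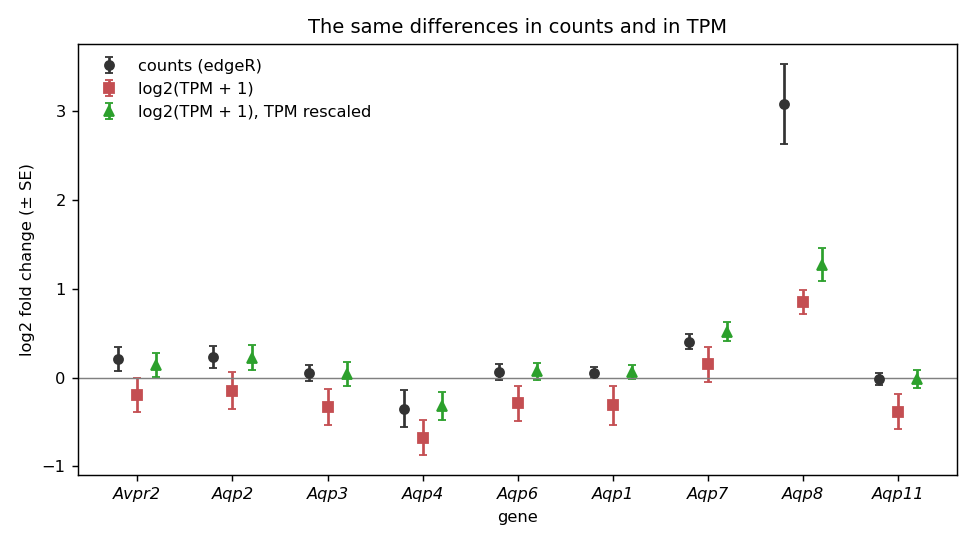
Log2 fold change (± SE) of the 9 tested members from counts (black circles), from log2(TPM + 1) of the deposited values (red squares) and from the same after rescaling without short non-coding genes (green triangles). The red squares lie below the other marks for each gene, and Aqp8 runs from 0.85 in red to 3.09 in black.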

How the data were processed

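Members and lists were chosen with earlier results of these data known. Per the labels' protocols, total RNA of frozen kidney was depleted of ribosomal RNA and made into stranded libraries. The authors deposited expected counts (estimated counts, 3.61% of values not whole) and TPM for 45706 Ensembl genes. The submitters' processing notes name STAR 2.7.10a, RSEM 1.3.1, Salmon 1.10.1, Subread 2.0.1 and GRCm38 without roles; the sources used here give neither the annotation release nor the strand setting. Symbols came from GENCODE M21 (45143 identifiers matched). Counts were rounded and fitted with edgeR 4.0.16 (filterByExpr, TMM, robust quasi-likelihood, Benjamini-Hochberg over all genes tested), a script tested on simulated data. The median SE was 0.11 log2 units. Alternatives used DESeq2 1.42.0, limma 3.58.1 (voom, or trend on TPM), other scalings, filters and thresholds, blocks, and each library left out. List counts under each alternative were added after seeing the data. Named genes were all members, Adcy6, Gnas, Creb1, up to 5 called genes per pathway list, markers beside members, and the 4 nearest profiles to Aqp2 and to the member with the largest fold. Other genes named, such as neighbours and Avpr1b, were chosen after their values were seen. Library pairs within a group differed by 7.48 to 25.4 times sampling noise (chi-square per degree of freedom). Untreated library 3 differed from untreated 1 and 2 by 24.8 and 25.4, those 2 from each other by 8.51, and treated pairs by at most 18.0. Short non-coding RNA took 0.43%, 0.57% and 2.46% of the counts in untreated libraries 1 to 3 and 1.83% to 2.79% in treated ones. Its part in the differences was not tested.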

Additional observations from a re-analysis of the deposited data

Results flagged for a closer look

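In treated library 4 Aqp2 stood apart from the other 3 treated kidneys: its gap to the nearest of them was 0.842 of the group's range in CPM. Aqp3 stood apart in the same library, with a gap of 0.910 of the range. The treated group of 10 members was examined this way, and chance flags about 1 group in 20. Both values come from the same kidney.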

How the results depend on the processing

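The calls of Aqp7 and Aqp8 rest on the libraries whose differences were known when the members were chosen, so their recurrence under other settings is no support for them. On TPM the members called higher were 1 with a pseudocount of 1 or 0.1 and 0 with no filter. On those scales Aqp7 stood at 0.15 or 0.16 and Aqp8, with no filter, at 0.85, without a call. Members called lower were 1 with a pseudocount of 1 or 0.1, where Aqp4 stood at -0.68 and -0.71. The median gene lay at -0.31, -0.37 and, with no filter, -0.21 there, so directions on TPM are read against it. With a pseudocount of 0.1 the values that turned were Aqp1 at -0.31, Aqp2 at -0.15, Aqp3 at -0.34, Aqp6 at -0.30 and Avpr2 at -0.22; with a pseudocount of 1, with or without the filter, they were -0.31, -0.15, -0.34, -0.29 and -0.20. Small values also turned when libraries were left out, Aqp3 (-0.055 to 0.11, and -0.041 without untreated libraries 1 and 2), Aqp6 (-0.0062 to 0.15) and Aqp11 (-0.042 to 0.012); the cause was not tested.

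Genes called, 1102, were 481 at a threshold of 0.01, 1741 at 0.1, 280 on rescaled TPM, 64 on unfiltered TPM (2 higher and 62 lower), 556 against untreated library 3 alone, whose spread is taken from the treated libraries, and 692 to 1103 with 1 library left out. On log2(TPM + 1) 54 were higher and 1484 lower, and with a pseudocount of 0.1, 53 and 1424.

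The labels do not say whether samples with the same number share more than a number. Their deviations correlated at 0.03, -0.07 and 0.003 over 3 pairs, and pairs with different numbers ranged from -0.07 to 0.06. With the same span in both, these values cannot settle the question. With the range of library index numbers as a block 921 genes were called. With the replicate number as a block 809 genes were called, Aqp3 stood at -0.0088, and of the genes named here Gk, Gpd1, Nedd4l and Atp6v1g3 lost their calls (edgeR adjusted p = 0.0754, 0.0586, 0.0966 and 0.0522), which left 3 of the 4 intercalated cell genes. Depth limits Aqp5 (3 to 7 counts a library) and the untreated level of Aqp8 (2 to 4 counts).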
